A study of Homo sapiens with 8 samples.

Results

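The platelet-derived growth factor (PDGF) family was examined as a list of 6 genes: the receptors PDGFRA and PDGFRB and the ligands PDGFA, PDGFB, PDGFC and PDGFD. Rows annotated to a single listed gene were taken, dim rows included, which gave 4 of 22011 gene-level transcript clusters and 103 of 287329 exon-level probesets, from 5 of the 6 genes. PDGFRA was read only at the exon level, because its transcript cluster is annotated to several genes, and PDGFA was not analysed here. The list was proposed with the knockdown-against-control results of these arrays in view, so the members' differences in that contrast are given as a description and support nothing by themselves.

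All cells were of the established line MDA-MB-231, grown from a human breast carcinoma that lacks estrogen, progesterone and amplified HER2 receptors. They carried a lentivirus and expressed a short hairpin RNA (shRNA) stably. The control group expressed a control shRNA and the knockdown group an α3-targeting shRNA, directed at the integrin α3 subunit encoded by ITGA3. Each group had 2 biological replicates, and each RNA was read on 1 Human Exon 1.0 ST array (Affymetrix), which carries separate probesets for most exons. The gene-level and exon-level values are summaries of the same 4 arrays, so the exon level adds no replicates. The labels name no different α3 hairpin, no rescue and no clone, and do not say whether the replicates came from separate transductions.

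PDGF ligands are secreted dimers. PDGF-A and PDGF-B are processed inside the cell by furin-like proteases, whereas PDGF-C and PDGF-D are secreted with an amino-terminal CUB domain that outside proteases must cut away before they can bind. PDGF-A and PDGF-C act mainly through the α receptor, PDGF-D mainly through the β receptor, and PDGF-B through both. Ligand binding pairs the receptors, which phosphorylate each other and recruit SRC kinases, phosphatidylinositol 3-kinase, phospholipase C-gamma and GRB2. The receptors are characteristic of fibroblasts, pericytes and smooth muscle, while many carcinoma cells secrete the ligands.

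Values are PLIER intensities, a linear brightness with no absolute unit, and levels of different genes are not set against each other. Differences are knockdown minus control on the log2(intensity + 16) scale with the limma standard error (SE), and this scale understates changes of dim genes. A feature was tested if its mean over the 4 arrays lay above the lower 40% of its table (an intensity of 106.5 for clusters and 96.2 for probesets), and called at a Benjamini-Hochberg adjusted p under 0.05 over all features tested. Gene-level array medians were 177 and 186 in controls and 168 and 171 in knockdown arrays, a shift of -0.091 on the log2 scale. Log2 values correlated at 0.990 between controls and 0.991 between knockdown arrays across clusters, which are not independent replicates. ITGA3 measured 3480 and 3529 in control arrays and 619 and 644 in knockdown arrays. Of 6 genes listed as typical of MDA-MB-231, 5 were above the filter (VIM, CD44, AXL, EGFR and PLAU), while SPARC was dim at 42.3 to 58.7. EGFR was called higher, AXL and PLAU were called lower, and VIM and CD44 were not called. Of 6 epithelial and luminal genes, ESR1, PGR and CDH1 were below the filter, with CDH1, the epithelial E-cadherin, at 25.4 and 28.8 in control arrays and 177 and 168 in knockdown arrays. The keratin gene KRT8 (3899 to 4504) and EPCAM (99.0 to 138) were above it and not called, and ERBB2 fell from 460 and 480 to 332 and 346 (limma, adjusted p = 0.0170). Of the leukocyte markers 2 of 4 measured and of the endothelial markers 0 of 5 were above the filter, with none called. In these bulk RNA samples, fewer cells expressing a gene and less RNA per cell cannot be told apart.

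PDGFRB was the member with the higher level in knockdown cells, PDGFD had the lower level by the widest margin, PDGFC was modestly lower, and PDGFB and PDGFRA showed no shared shift. At the gene level 2 of the 4 member clusters, PDGFRB and PDGFC, passed the filter on dim values, and PDGFRB passed it only through its knockdown arrays, since both controls lay under the limit. PDGFRB was called higher and PDGFC was not called. Over all clusters tested 5.99% were called higher and 15.3% lower (21.3% in either direction), and nothing is read from the members' count against these shares because the list was chosen on this contrast.

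PDGFRB encodes the β receptor, which binds PDGF-B and PDGF-D. Its cluster (2881239) measured 74.0 and 80.0 in control arrays and 270.9 and 262 in knockdown arrays. Both knockdown arrays stood above both controls, as in 19.1% of all clusters, and the replicates of each group lay close together. The mean went from 77.0 ± 4.21 to 266 ± 6.43 (SD, n = 2 in each group), 3.46 times the control level, and the log2 difference was 1.60 ± 0.11 (SE). Of all 22011 clusters, 18 (0.0818%, PDGFRB included) had a difference at least as high.

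**Figure D1:**
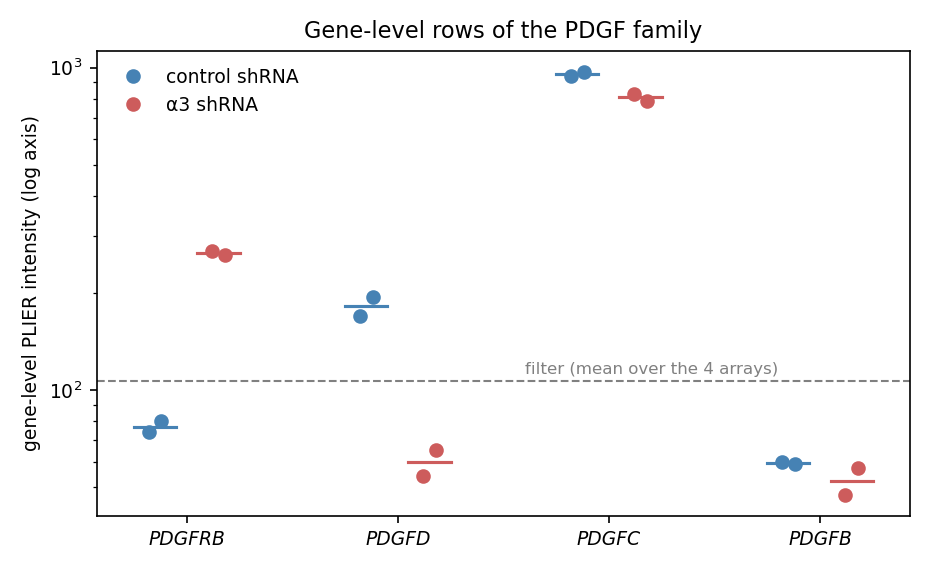
Gene-level PLIER intensity on a log axis for the 4 PDGF family clusters, with 1 point per array, a short line at the mean of each group of 2 arrays and a dashed line at the filter limit of 106.5. PDGFRB crosses the limit upward, from 77.0 to 266, and PDGFD crosses it downward, from 182 to 59.7, while PDGFC and PDGFB stay on one side.

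The probesets of PDGFRB moved mostly together. In 27 of 32 probesets both knockdown arrays lay above both controls, in 5 the groups overlapped, and in none did the knockdown arrays both lie below. Over all probesets on the array 17.7% had both knockdown arrays above both controls. Of the 23 PDGFRB probesets above the filter, 16 were called higher and 7 were not called, where 1.33% of all tested probesets were called higher and 4.58% in either direction. In 6 of the 16 called probesets both controls lay under the limit, and in 10 the control mean did, so these passed the filter through the knockdown arrays, and nothing is read from the count. The log2 differences ran from -0.10 to 2.51 with a median of 1.49, and 22 of the 32 were at least 2-fold on the offset scale.

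Single probesets show the range of the PDGFRB differences. Probeset 2881285 had the largest difference, with 35.8 and 53.6 in control arrays and 333 and 319.6 in knockdown arrays. Probeset 2881281 measured 86.4 and 136 in control arrays and 620 and 604 in knockdown arrays. In both, the lower knockdown array was far above the higher control.

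Probeset 2881279 had the highest mean of the gene in the controls, at 574 and 381, and gave 497 and 602 in knockdown arrays. Its groups overlapped. Probeset 2881247 likewise overlapped, at 216 and 183 in control arrays and 192 and 176 in knockdown arrays. Probeset 2881268 stayed between 178 and 188 on all 4 arrays.

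The 6 probesets numbered 2881244 to 2881249, a run picked after their values were seen, had a median log2 difference of 0.39, against 1.69 for the other 26. In 4 of these 6 the groups overlapped, against 1 of the other 26. The files give no exon position for a probeset, so where this run lies in the transcript was not analysed here. Relative to the mean of the other tested probesets of the gene, PDGFRB probesets deviated by between -1.47 and 1.26 on the log2 scale. None of the 23 passed limma for such a deviation, although 13 had an unadjusted p under 0.05, as did 6.27% of all probesets so tested. Over the whole array 22 of 155392 probesets (0.0142%) passed, 0.00837% upward and 0.00579% downward.

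**Figure D2:**
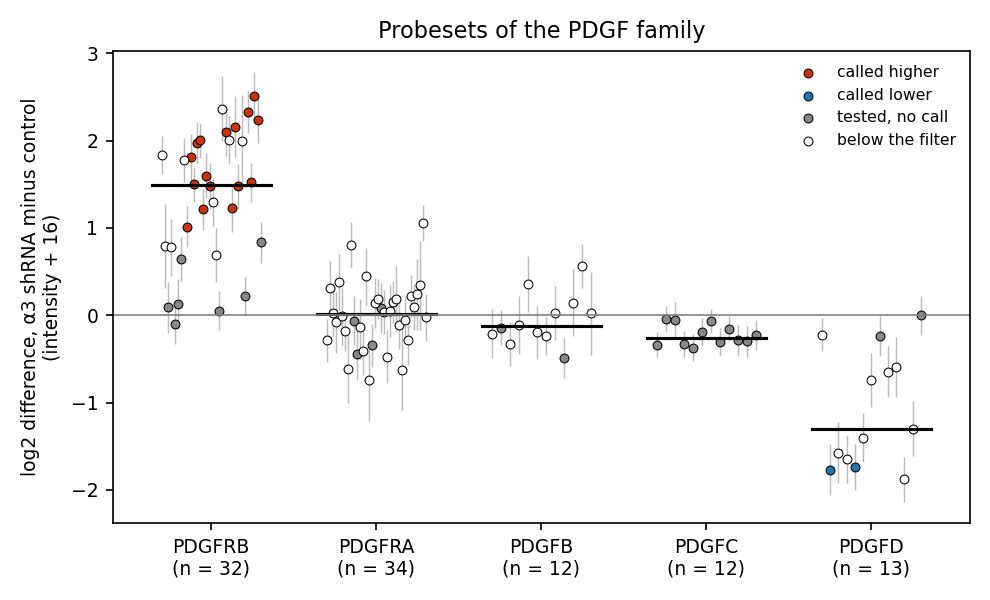
Log2 difference (knockdown minus control, of intensity + 16) of each of the 103 PDGF family probesets, in order of probeset number within a gene, with bars for the SE and a line at the median. Red marks probesets called higher, blue called lower, grey tested with no call and white below the filter. Most PDGFRB probesets lie above 1, most PDGFD probesets below -0.5, PDGFC probesets in a narrow band under 0, and those of PDGFRA and PDGFB on both sides of 0.

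The promoters of PDGFRB and PDGFD, the members with the largest differences, are shown to give the sequence next to each start site. They are the 250 bases before the RefSeq start on the minus strand of GRCh38.p14, at chr5:150155846-150156095 for PDGFRB and chr11:104164148-104164397 for PDGFD, written 5′ to 3′. Capitals mark matches, on either strand, to CCAAT (the CCAAT box, bound by NF-Y) and GGGCGG (the GC box, bound by SP1).

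PDGFRB: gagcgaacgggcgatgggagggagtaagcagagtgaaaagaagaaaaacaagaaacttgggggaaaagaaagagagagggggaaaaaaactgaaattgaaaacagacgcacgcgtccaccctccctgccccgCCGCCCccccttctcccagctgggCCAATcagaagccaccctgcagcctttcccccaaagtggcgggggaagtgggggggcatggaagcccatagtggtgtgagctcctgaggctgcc

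PDGFD: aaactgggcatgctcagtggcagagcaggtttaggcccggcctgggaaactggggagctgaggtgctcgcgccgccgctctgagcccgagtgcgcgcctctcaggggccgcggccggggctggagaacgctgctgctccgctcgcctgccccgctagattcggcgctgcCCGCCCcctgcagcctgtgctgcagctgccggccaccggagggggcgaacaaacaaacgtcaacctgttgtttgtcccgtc

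PDGFRB held 1 CCAAT and 1 GGGCGG, and PDGFD held 1 GGGCGG and no CCAAT. These matches did not overlap. Of 35116 RefSeq promoter windows of this length, 32% held CCAAT and 42.6% held GGGCGG, so such matches are common. Neither promoter held TATAAA (the TATA box, in 10.7% of windows), TGANTCA (the AP-1 site, in 6.57%) or CATTCC (the TEAD site, in 11.9%), searched on both strands. A match is only a match of letters, and no binding was measured.

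PDGFD encodes a CUB-domain ligand of the β receptor. Its cluster (3389077) measured 169 and 195 in control arrays and 54.3 and 65.2 in knockdown arrays. Both knockdown arrays stood below both controls, as in 33.0% of all clusters, and the higher knockdown array was far below the lower control. The mean went from 182 ± 17.8 to 59.7 ± 7.71 (SD, n = 2 in each group), 0.328 times the control level, with a log2 difference of -1.39 ± 0.14 (SE). Of all 22011 clusters, 106 (0.482%, PDGFD included) had a difference at least as low.

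The cluster of PDGFD was not tested in the filtered comparison, because its mean over the 4 arrays was 106.2 on the log scale and the limit was 106.5. With no filter, PDGFD was tested and called lower. It was also called lower with an offset of 64, which lifted it over the limit. Both knockdown arrays lay under 106.5, so PDGFD could pass the filter only through its controls, and nothing is read from these calls. Without knockdown replicate 1 the log2 difference was -1.28, and without knockdown replicate 2 it was -1.49.

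Of the 13 PDGFD probesets, 11 had both knockdown arrays below both controls, against 27.5% of all probesets, and 2 overlapped. The median log2 difference was -1.30, in a range from -1.88 to 0.00, and 7 of 13 were at least 2-fold. Only 4 probesets were above the filter, of which 2 were called lower (3.25% of all tested probesets were called lower). Both passed the filter through their controls, since their knockdown arrays lay under the limit, and nothing is read from the count. With no filter, with the lower 60% left out or without control replicate 1, PDGFD had 0 probesets called, and without control replicate 2 it had 1.

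Probeset 3389113 measured 245 and 231 in control arrays and 52.1 and 68.9 in knockdown arrays. Probeset 3389110 measured 219 and 238 in control arrays and 43.4 and 70.7 in knockdown arrays. These are the 2 called probesets, and in both the groups stood well apart.

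Probeset 3389164, below the filter, had the largest difference, with 92.2 and 89.4 in control arrays and 15.6 and 10.7 in knockdown arrays. Against this pattern, probeset 3389166 gave 189.9 and 190.7 in control arrays and 184 and 197 in knockdown arrays. Probeset 3389126 gave 455 and 310 in control arrays and 339.8 and 295 in knockdown arrays. These last probesets are the ones whose groups overlapped.

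**Figure D3:**
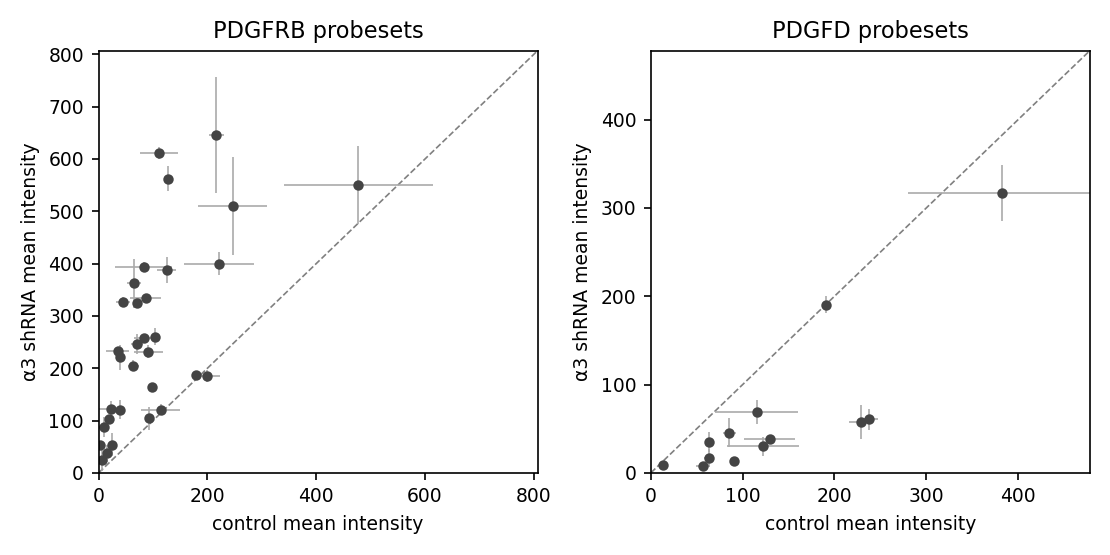
Mean PLIER intensity of each PDGFRB probeset (left, 32 probesets) and PDGFD probeset (right, 13 probesets) in knockdown against control, with bars for the SD of 2 arrays and a dashed line of equal levels. PDGFRB probesets lie mostly above the line, up to 646, and PDGFD probesets mostly below it, with 2 bright probesets near it.

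PDGFC encodes the CUB-domain ligand that acts mainly through the α receptor. Its cluster (2791197) measured 943 and 970 in control arrays and 830 and 788 in knockdown arrays. The groups did not overlap, but over all clusters 33.0% had both knockdown arrays below both controls. The mean went from 956 ± 19.3 to 809 ± 29.7 (SD, n = 2 in each group), a log2 difference of -0.24 ± 0.08 (SE) that was not called. A difference at least as low was found in 23.1% of all clusters, PDGFC included. With arrays centred on their medians, the PDGFC difference was -0.15.

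All 12 PDGFC probesets were above the filter, which was so for no other member. Their differences were all below 0, from -0.37 to -0.04 with a median of -0.26, and 9 of the 12 had both knockdown arrays below both controls (27.5% of all probesets). The median difference over all tested probesets was also below 0, at -0.051. With arrays centred on their medians, the median of the PDGFC probesets was -0.18. None was called by limma, and 2 had an unadjusted p under 0.05. Probeset 2791222, the brightest, measured 2310 and 1986 in control arrays and 2120 and 1750 in knockdown arrays, which overlapped. Probeset 2791205 had the largest difference, with 1091 and 1096 in control arrays and 915 and 776 in knockdown arrays.

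PDGFB encodes the ligand that binds both receptors. Its cluster (3961068) was below the filter, at 59.6 and 58.9 in control arrays and 47.4 and 57.3 in knockdown arrays, with a log2 difference of -0.14 ± 0.14 (SE). The lower control and the higher knockdown array lay close together. A difference at least as low was found in 34% of all clusters, PDGFB included. The direction was not stable between summaries, since the median of the probesets' log2 values, taken on each array, gave a difference of 0.16 and the median of the probesets' differences was -0.13.

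Of 12 PDGFB probesets, 10 were below the filter, and the groups overlapped in 9. Probeset 3961070, the brightest, measured 458 and 353 in control arrays and 358 and 368 in knockdown arrays. Probeset 3961087 measured 234 and 207 in control arrays and 164 and 141 in knockdown arrays, and was the only one of the 2 tested whose groups did not overlap. Neither was called by limma, and neither had an unadjusted p under 0.05.

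PDGFRA encodes the α receptor, which binds PDGF-A, PDGF-B and PDGF-C. Of its 34 probesets, 30 were below the filter and the groups overlapped in 24. Differences were above 0 in 17 probesets and below 0 in 17, with a median of 0.01. The highest value on any array was 162, in probeset 2727387, which gave 157 and 162 in control arrays and 115 and 130 in knockdown arrays. None of the 4 tested probesets was called by limma or had an unadjusted p under 0.05. Probeset 2727414 had the largest difference (1.06), but from 0.355 and 2.46 in the controls to 17.0 and 23.6 in knockdown arrays. Probeset 2727386 differed about as widely between its knockdown replicates, at 21.8 and 0.0889.

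The other genes of the PDGF pathway were described through 6 lists with 75 genes in all, also chosen with earlier results of these data known, of which 62 had a cluster with 1 symbol and 50 were tested. Of these 50, 8 rose, 15 fell and 27 were not called. The shares were 16% higher and 30% lower, beside 5.99% and 15.3% over all clusters tested. Nothing is read from this gap or from the counts of single lists below, because the lists were chosen with such results known. In 3 of the called genes (CSPG4, CCL2 and PTGS2) both arrays of the lower group lay under the filter limit. With arrays centred on their medians 10 rose and 11 fell, and after quantile normalization 9 rose and 14 fell.

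Proteases that process PDGF ligands were lower or not called. Of 7 measured, 5 were tested, 3 fell and 0 rose, where 15.3% and 5.99% of all clusters tested did. The median log2 difference was -0.45 (-0.055 over all clusters tested). PLAU, the urokinase that can activate PDGF-D, fell from 3325 and 3403 in the controls to 2056 and 2068 (log2 difference -0.70 ± 0.07 (SE), adjusted p = 0.00316). FURIN, which cuts PDGF-A and PDGF-B, fell from 186 and 219 to 111 and 135 (-0.65 ± 0.14 (SE), adjusted p = 0.0241). PCSK7, a related convertase, fell from 213 and 235 to 153 and 167 (-0.45 ± 0.11 (SE), adjusted p = 0.0374), and PCSK6 measured 158 and 179 in control arrays and 113 and 131 in knockdown arrays (adjusted p = 0.0696). The calls of FURIN and PCSK7 were lost without control replicate 2, knockdown replicate 1 or knockdown replicate 2. That of PCSK7 was also lost without control replicate 1 and after centring. Both calls were also lost with no filter and on exon-level medians (limma, adjusted p on these medians 0.143 for FURIN and 0.0525 for PCSK7).

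Genes that bind PDGF or assist its receptors moved in both directions, with 2 of 7 tested higher and 2 lower (median log2 difference -0.15). Beside this stood 5.99% higher and 15.3% lower over all clusters tested. CSPG4, the NG2 proteoglycan that binds PDGF-A and marks pericytes together with PDGFRB, rose from 98.0 and 81.7 in the controls to 282 and 277 (log2 difference 1.49 ± 0.12 (SE), adjusted p = 0.00178). NRP1, a co-receptor, fell from 1188 and 1240 to 672 and 646 (-0.87 ± 0.08 (SE), adjusted p = 0.00218). ITGB3, the integrin β3 subunit that cooperates with the β receptor, rose from 130 and 132 to 177 and 211 (adjusted p = 0.0341), and LRP1, a scavenger receptor that binds the β receptor, fell from 208 and 241 to 149 and 161 (adjusted p = 0.0342). Leaving out any single array ended the ITGB3 call (adjusted p up to 0.226), and the LRP1 call without control replicate 2, knockdown replicate 1 or knockdown replicate 2 (up to 0.173). Both were also lost with no filter.

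CSPG4 was the one pericyte or smooth muscle marker called, of 4 tested and 10 measured. Both of its controls lay under the filter limit, so it was tested only through its knockdown arrays. The summed intensity of these 10 markers was 1443 to 1502 in control arrays and 1573 to 1590 in knockdown arrays. Without CSPG4 the other 9 summed to 1362 to 1404 in control arrays and 1296 to 1308 in knockdown arrays. MCAM, at 639 to 693, was the largest part of this sum, so the sum says little about the dimmer markers. The smooth muscle genes ACTA2 and TAGLN, also listed, had no cluster named to them alone. RGS5, a pericyte marker, measured 70.7 and 71.1 in control arrays and 44.3 and 50.02 in knockdown arrays, and ABCC9 and KCNJ8 lay below the filter at 14.0 to 52.9. MCAM, DES and NOTCH3 were above the filter and not called. The 8 fibroblast markers summed to 464 to 488 in control arrays and 494 to 506 in knockdown arrays, and without COL1A1 to 316 to 340.5 and 327 to 339. COL1A1, a collagen gene and the only one above the filter, measured 147 and 148 in control arrays and 167 and 167 in knockdown arrays and was not called. COL1A2, COL3A1 and PDPN lay at 65.9 to 88.6, and DCN, LUM, FAP and THY1 at 8.88 to 35.5. None of these markers was at 0. The part of other cells in the PDGFRB and CSPG4 values was not tested.

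The receptors most closely related to the PDGF receptors were dim. KIT, the receptor of stem cell factor, measured 18.2 to 22.4 over the 4 arrays, CSF1R 73.8 to 91.0 and FLT3 64.5 to 88.5, all below the filter. Among their ligands, CSF1 rose from 1044 and 954 in the controls to 1230 and 1242 (log2 difference 0.30 ± 0.08 (SE), adjusted p = 0.0440), FLT3LG fell from 337 and 316 to 227 and 219 (-0.52 ± 0.10 (SE), adjusted p = 0.0154), and IL34 was 102 and 112 against 113 and 122 (adjusted p = 0.551). Both calls were lost without knockdown replicate 1 or knockdown replicate 2 and on exon-level medians, and that of CSF1 also without control replicate 2, with no filter and without the intensity trend (adjusted p up to 0.860 for CSF1 and 0.115 for FLT3LG).

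Molecules that the active receptors recruit were mostly not called, with 3 of 14 tested higher, 1 lower and 10 not called. Most clusters tested were not called either, with 5.99% higher and 15.3% lower. GRB10, an adaptor that binds phosphorylated receptors, rose from 439 and 464 in the controls to 694 and 678 (log2 difference 0.59 ± 0.08 (SE), adjusted p = 0.00694). FYN, a SRC-family kinase, rose from 623 and 598 to 827 and 922 (0.51 ± 0.09 (SE), adjusted p = 0.0130), and PIK3CB, a catalytic subunit of phosphatidylinositol 3-kinase, from 710 and 758 to 903 and 931 (adjusted p = 0.0373). SHC1, an adaptor upstream of RAS, fell from 1456 and 1370 to 1088 and 1102 (adjusted p = 0.0218). The GRB10 call was lost without knockdown replicate 1 (adjusted p = 0.0516), the FYN call without knockdown replicate 2 (0.103), and those of PIK3CB and SHC1 without control replicate 1, knockdown replicate 1 or knockdown replicate 2 (up to 0.230 and 0.119) and on exon-level medians. PIK3CB also lost its call with no filter and without the intensity trend, and SHC1 after centring.

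Of 9 tested genes that dephosphorylate, scaffold or degrade the receptors, 2 rose and 1 fell. The shares over all clusters tested were 5.99% higher and 15.3% lower. The tyrosine phosphatase gene PTPN1 rose from 1517 and 1555 in the controls to 1974 and 1935 (log2 difference 0.34 ± 0.07 (SE), adjusted p = 0.0217), and PTPN12, a phosphatase that acts on the β receptor, from 617 and 661 to 805 and 1056 (adjusted p = 0.0412). NHERF1, a scaffold that binds the tail of the β receptor, fell from 1343 and 1300 to 959 and 969 (-0.45 ± 0.07 (SE), adjusted p = 0.0106). STAMBP, a deubiquitinase of endosomes, measured 1445 and 1433 in control arrays and 1273 and 1216 in knockdown arrays (adjusted p = 0.0978). The PTPN1 call was lost without control replicate 1, knockdown replicate 1 or knockdown replicate 2 (adjusted p up to 0.126), the PTPN12 call without either control replicate or knockdown replicate 2 (up to 0.197) and the NHERF1 call without either knockdown replicate (up to 0.0680). PTPN1 and PTPN12 also lost theirs on exon-level medians, and PTPN12 with no filter and without the intensity trend.

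Genes known to be induced early by PDGF in fibroblasts were lower or not called, with 7 of 12 tested lower, 0 higher and a median log2 difference of -0.39. Over all clusters tested 15.3% were lower, 5.99% higher and the median was -0.055. With arrays centred on their medians 5 of the 12 were lower. Nothing is read from the gap, because the list was chosen with such results known. PTGS2, which encodes cyclooxygenase-2, fell from 1278 and 1137 in the controls to 8.61 and 8.20 (log2 difference -5.65 ± 0.12 (SE), adjusted p = 3.73e-05). CCL2, a monocyte chemoattractant first found as a PDGF-induced gene, fell from 586 and 653 to 23.8 and 35.7 (-3.81 ± 0.16 (SE), adjusted p = 0.000195). HAS2, a hyaluronan synthase, fell from 1355 and 1359 to 233 and 229 (-2.48 ± 0.08 (SE), adjusted p = 9.24e-05), and SPRY2, a feedback inhibitor of receptor signalling, from 2017 and 2156 to 1267 and 1199 (-0.75 ± 0.08 (SE), adjusted p = 0.00343). PTGS2 and CCL2 passed the filter only through their controls, and without either control replicate neither was tested. With an offset of 64 their log2 differences were -4.13 and -2.87, since the offset sets the size of a fall to such dim values. JUNB, EGR1 and DUSP1, named after their values were seen, were the remaining calls, with log2 differences of -0.62, -0.41 and -0.37. Leaving out any single array ended the EGR1 call (adjusted p up to 0.195), after quantile normalization (0.0662) or centring (0.0662), with no filter (0.0567) and on exon-level medians (0.571). The DUSP1 call was lost without control replicate 1, knockdown replicate 1 or knockdown replicate 2, after centring and with no filter (up to 0.150).

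**Figure D4:**
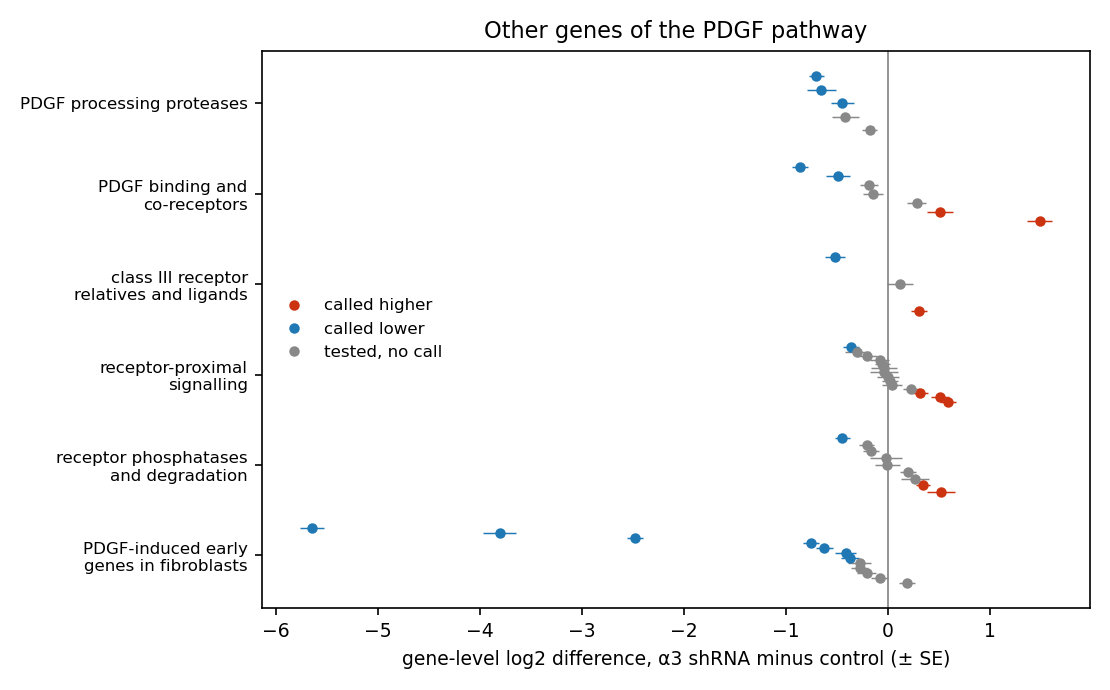
Gene-level log2 difference (knockdown minus control, ± SE) of the 50 tested pathway genes by list, sorted within a list. Red points were called higher, blue lower and grey not called. CSPG4 lies farthest to the right at 1.49, and PTGS2, CCL2 and HAS2 farthest to the left at -5.65, -3.81 and -2.48.

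The 5 genes named here had the 4-array profiles nearest to that of PDGFRB, judged by the mean absolute difference of log2 values after subtracting each gene's control mean. They were NDRG1 (0.026 from PDGFRB), RELN (0.050), ANKRD1 (0.076), TLR4 (0.081) and TMEM52B (0.093). NDRG1, a stress-responsive gene, measured 1118 and 1203 in control arrays and 3723 and 3625 in knockdown arrays. RELN, which encodes the secreted protein reelin, measured 40.3 and 40.9 in control arrays and 147 and 149.98 in knockdown arrays. TMEM52B measured 15.1 and 21.8 in control arrays and 99.0 and 91.1 in knockdown arrays. RELN and TMEM52B were dim over the 4 arrays and so were not tested. With 4 arrays in 2 groups, such likeness says little beyond a similar difference between the groups.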

How the data were processed

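The authors deposited PLIER intensity values per transcript cluster and per probeset, made with Affymetrix Expression Console (core-gene and core-exon analyses), per the labels; the series design text instead names Exon Array Computational Tool (Affymetrix). No software version, background correction, between-array normalization or genome build was stated in the sources used here, and another scaling moves the balance of higher and lower calls. Features were named through the platform annotation, with symbols updated through RefSeq gene names. Of 22011 clusters 14432 had 1 symbol, 2408 several and 5171 none; of 287329 probesets 261273, 9155 and 16901. A gene with several clusters is represented by the brightest, except members.

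Intensities were transformed as log2(value + 16), the lower 40% by mean log2 over the 4 arrays left out, and groups compared with limma 3.58.1 in R 4.3.3 (eBayes with intensity trend, 2 residual degrees of freedom, two-sided, Benjamini-Hochberg). For features left out of the test, differences and SE come from the same fit without the filter. Probeset usage was each tested probeset minus the mean of the other tested probesets of its gene, in genes with at least 3. Software was the data.table package (version 1.17.8), pandas 2.3.3, matplotlib 3.10.9 and Python 3.11.15.

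The members and gene lists were chosen with earlier results of these data known. The text names all members, ITGA3, per list up to 4 genes with the smallest p and any called gene changed at least 2-fold, the 5 genes nearest PDGFRB, and 2 protein-coding neighbours on each side of each receptor gene. Alternatives were other offsets, filters, variance models and scalings, exon-level medians, a replicate block and leaving out each array. Each fit was tested on simulated data. The number of arrays limits the precision. The p-values set each difference against the spread between replicate arrays, moderated by limma across features. They do not cover variation between hairpins, and the labels do not say whether they cover separate transductions.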

Additional observations from a re-analysis of the deposited data

How the results depend on the processing

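PDGFRB kept its call in every alternative that tested it, and PDGFC stayed without one. PDGFRB passed the filter through its knockdown arrays only and was chosen on this contrast. Nothing is therefore read from the stability of its call. A filter on the lower 60% left PDGFRB untested. Without 1 array, gene-level differences ranged from 1.56 to 1.65 for PDGFRB, -1.49 to -1.28 for PDGFD, -0.27 to -0.20 for PDGFC and -0.25 to -0.04 for PDGFB. The median probeset difference ranged from 1.45 to 1.52 for PDGFRB, -1.36 to -0.99 for PDGFD, -0.32 to -0.25 for PDGFC, -0.27 to 0.093 for PDGFB and -0.07 to -0.04 for PDGFRA. With offsets of 1 and 64 the gene-level PDGFD difference was -1.59 and -0.99, and on exon-level medians -0.99 (PDGFB 0.16). The probeset medians with these offsets were 1.66 and 1.03 for PDGFRB and -1.71 and -0.66 for PDGFD. Centring gave 1.56 for PDGFRB and -1.22 for PDGFD, and quantile normalization -1.23 for PDGFD.

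Clusters called numbered 2807, and 842 to 2359 without 1 array (842 without knockdown replicate 2, 1095 without knockdown replicate 1). Of these 791 were higher and 2016 lower, against 1351 and 1674 after quantile normalization and 1496 and 1507 after centring. Probesets called numbered 7898, but 163 with no filter, 1693 without intensity trend and 2790 to 5563 without 1 array (2790 without control replicate 1, 4037 without control replicate 2, 3564 without knockdown replicate 2). With no filter 0 PDGFRB probesets were called, with a filter on the lower 60% 4, and 8 to 15 without 1 array. Pathway genes called numbered 23, but 14 with the lower 60% left out, 16 with no filter, 16 on exon-level medians and 9 to 15 without 1 array (13 without control replicate 1, 15 without control replicate 2, 10 and 9 without knockdown replicate 1 and 2). Of the 23, 8 kept their call in every alternative that tested them (CCL2, CSPG4, HAS2, JUNB, NRP1, PLAU, PTGS2 and SPRY2). PTGS2 was tested in 10 alternatives, CCL2 in 11 and CSPG4 in 13, against 14 for the others named. These PTGS2, CCL2 and CSPG4 calls passed the filter through 1 group only, so their stability is not comparable. The cause of the shifts in these counts was not tested.

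Replicate numbers are shared between groups, but no label says that they pair the samples. Deviations of same-numbered arrays correlated at 0.192. With the replicate block 4065 clusters and 28959 probesets were called, 25 pathway genes and 17 PDGFRB probesets, and PDGFRB kept its call.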

Other observations

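The chromosomal neighbours of the receptor genes, taken from the order of protein-coding genes in RefSeq are given as values. Next to PDGFRB on chromosome 5, CSF1R measured 91.0 and 88.1 in control arrays and 81.7 and 73.8 in knockdown arrays, CDX1 189 and 157 against 176 and 169, and SLC6A7 84.4 and 66.0 against 70.5 and 69.6. HMGXB3 had no cluster named to it alone. Around PDGFRA on chromosome 4, KDR measured 109 and 91.8 in control arrays and 92.0 and 93.8 in knockdown arrays, GSX2 134 and 127 against 168 and 98.6, and KIT 21.2 and 18.2 against 21.7 and 22.4. CHIC2 rose from 755 and 701 to 914 and 953 (log2 difference 0.35, adjusted p = 0.0294, limma), a call lost with no filter and without control replicate 2, knockdown replicate 1 or knockdown replicate 2 (adjusted p up to 0.193).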
